A study of Mus musculus with 4 samples.

Results

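The sections described here are those with the most transcript from 6 genes of the neuromuscular synapse, 43 of the 171 cross-sections kept from 4 mouse tibialis anterior muscles. The 6 genes were Chrne, Chrna1, Chrnd, Colq, Musk and Ache, and a section's score was the sum of their counts in CPM (counts per 1000000), taken over genes not encoded in mitochondria. In each muscle the 25% of kept sections with the highest score, 9, 11, 12 and 11 sections in muscles 1 to 4, were set against the other 28, 34, 34 and 32. These are called the high-scoring sections and the other sections below. TOMO-seq, the assay used, cuts a tissue into serial sections and gives the RNA of every section a barcode before sequencing. Tibialis anterior, on the shin, is made mostly of fast fibres, and all 4 muscles belong to 1 group with no treatment named. The labels give no strain, age or sex and do not state whether each muscle is from a different animal, so p-values measure only the spread between these samples, which may be technical. Sections were ordered by barcode number, since the order of cutting is not in the labels.

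At the neuromuscular junction a motor nerve ending faces a small patch of the muscle fibre, and acetylcholine released by the nerve opens receptors packed in that patch. Nuclei beneath the patch transcribe receptor and other synaptic genes far more than nuclei elsewhere along the fibre, under the influence of nerve-derived agrin and neuregulin. Chrne, Chrna1 and Chrnd encode the epsilon, alpha and delta subunits of the adult receptor. Musk is the receptor kinase through which agrin gathers receptors. Ache is the esterase that ends the signal, and Colq is the collagen tail that holds it in the synaptic cleft.

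Promoter sequence was available for 4 of the 6 scoring genes and is shown because the N-box, an Ets factor site known to direct synaptic transcription of receptor genes, and the E-box, the site of myogenic factors, lie in such regions. Each run covers 250 bases before and 50 bases after the start given by RefSeq on GRCm38.p6, read 5′ to 3′ on the gene's strand. Capitals mark each CCGGAA (N-box, searched on both strands) and each CANNTG (E-box, which reads the same class of letters on both strands), and no pair of matches overlaps. The windows are chr11:70619145-70619444 (minus strand) for Chrne, chr2:73580289-73580588 (minus strand) for Chrna1, chr4:58285712-58286011 (plus strand) for Musk and chr5:137288004-137288303 (plus strand) for Ache.
Chrne: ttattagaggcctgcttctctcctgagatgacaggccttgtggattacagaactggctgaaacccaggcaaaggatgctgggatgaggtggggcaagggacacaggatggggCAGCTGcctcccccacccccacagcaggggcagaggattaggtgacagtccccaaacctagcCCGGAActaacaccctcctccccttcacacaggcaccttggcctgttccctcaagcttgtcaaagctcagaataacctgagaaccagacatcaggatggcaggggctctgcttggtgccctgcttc
Chrna1: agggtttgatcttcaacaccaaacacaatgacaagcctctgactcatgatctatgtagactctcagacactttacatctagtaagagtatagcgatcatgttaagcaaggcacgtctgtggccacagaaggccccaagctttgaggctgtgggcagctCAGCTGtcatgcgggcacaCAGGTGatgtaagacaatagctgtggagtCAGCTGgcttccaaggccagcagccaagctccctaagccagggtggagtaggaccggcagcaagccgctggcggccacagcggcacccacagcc
Musk: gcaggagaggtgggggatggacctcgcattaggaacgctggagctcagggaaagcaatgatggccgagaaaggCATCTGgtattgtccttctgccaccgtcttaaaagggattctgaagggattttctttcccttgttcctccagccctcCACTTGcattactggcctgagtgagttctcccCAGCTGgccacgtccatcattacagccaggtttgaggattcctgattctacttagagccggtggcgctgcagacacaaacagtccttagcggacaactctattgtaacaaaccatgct
Ache: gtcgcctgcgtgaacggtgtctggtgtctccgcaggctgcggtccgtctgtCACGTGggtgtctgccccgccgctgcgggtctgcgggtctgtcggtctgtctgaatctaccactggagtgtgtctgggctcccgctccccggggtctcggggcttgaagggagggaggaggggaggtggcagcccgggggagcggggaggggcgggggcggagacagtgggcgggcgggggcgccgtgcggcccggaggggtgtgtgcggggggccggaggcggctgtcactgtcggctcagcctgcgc

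The window of Chrne held 1 N-box, with its first base at -76 from the start, and 1 E-box at -138. Chrna1 held 3 E-boxes at -92, -73 and -44, Musk held 3 at -177, -100 and -68, and Ache held 1 at -199, with no N-box in any of these windows. Of 32851 RefSeq promoters of the same length, 14.9% held an N-box and 72.3% an E-box by the same search. These matches describe letters in the windows only.

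The score chose the sections, so its values are a description. The median score of the high-scoring sections was 90.1, 72.3, 48.2 and 74.8 CPM in muscles 1 to 4, against 47.1, 32, 21.6 and 27.6 in the other sections. The lowest score inside the choice was 73.2, 65.8, 36.4 and 50.4 in the 4 muscles, and the highest outside it was 71.2, 62.5, 34.8 and 50.04, so the border runs through a continuous range. Few transcripts stand behind a score. The median section held 15.005, 12.004, 10.502 and 10.002 counts of the 6 genes (corrected for repeated UMIs, and so not whole) among the high-scoring sections, against 8.503, 4.001, 4.5005 and 5.502 among the others, and 14 sections held none. Chrne gave 36.3% of all scoring counts, Ache 24.8%, Musk 23.3%, Chrna1 8.05%, Colq 3.91% and Chrnd 3.62%.

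High-scoring sections lay mostly away from both ends of the muscle but did not form 1 block. The kept sections of each muscle were divided by order into 5 zones of about equal number. Barcodes inside this range that were not kept, 4 in muscle 1 and 1 in muscle 3, were passed over. Zones 2 to 4 held 36 of the 43 high-scoring sections out of 100 kept sections there, and zones 1 and 5 held 7 out of 71. The share of sections chosen was 11.4%, 48.5%, 38.2%, 21.2% and 8.33% in zones 1 to 5. The 43 sections formed 23 separate runs along the 4 muscles, and 30 of them had a high-scoring neighbour. Distance from the middle was taken in the order of kept sections, as a share of their range. The median of the high-scoring sections was 0.25, 0.14, 0.16 and 0.14 in muscles 1 to 4, against 0.26, 0.32, 0.30 and 0.30 for the other sections. The high-scoring sections were nearer the middle in 4 of 4 muscles (mean difference -0.12 ± 0.07, SD, n = 4; two-sided exact sign-flip permutation test, at the smallest p that 4 muscles allow, which is above 0.05). Results with position matched, by zone but not inside a zone, are given at the end.

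**Figure D1:**
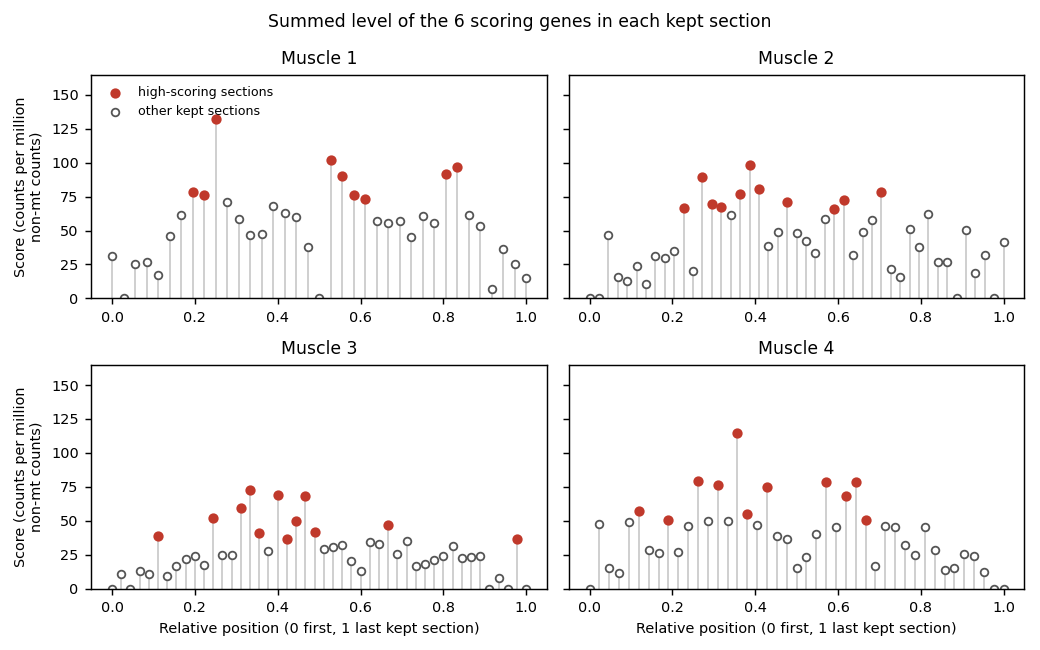
Score of each kept section (summed CPM of the 6 scoring genes) against relative position along muscles 1 to 4; red points are the high-scoring sections and open points the other kept sections. Most high-scoring sections lie in the inner part of the muscles, 36 of the 43 in zones 2 to 4, and the highest score is 132 in muscle 1.

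Each scoring gene was tested in sections chosen by the other 5, so that its own counts had no part in the choice. Chrna1 was higher in such sections in 4 of 4 muscles. It stood at 7.63, 7.64, 5.76 and 6.21 CPM of the summed counts in the high-scoring sections of muscles 1 to 4, against 3.02, 1.85, 2.17 and 2.52 CPM in the others, and the ranges do not overlap. The log2 difference was 1.45 ± 0.29 (SE, 4 muscles; edgeR adjusted p = 0.00399), and Chrna1 was among the 0.349% of tested genes called in that comparison. The value rested on 51 counts in the high-scoring sections and 58 in the others. Without muscle 1 the edgeR adjusted p was 0.0923 and without muscle 2 it was 0.116, and with position matched the difference was 0.63 and was not called (edgeR adjusted p = 0.882).

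Chrne stood at 28.4, 21.1, 15.2 and 19.8 CPM in sections chosen without it, against 21.9, 11.6, 6.84 and 15.4 CPM in the others. It was higher in 4 of 4 muscles by a log2 difference of 0.60 ± 0.15 and did not pass the threshold (edgeR adjusted p = 0.0997; 0.128% of genes called), but did without muscle 4 (0.73, edgeR adjusted p = 0.0419). Musk averaged 11.1 ± 4.96 CPM in sections chosen without it and 9.87 ± 4.54 CPM in the others (SD, n = 4; edgeR adjusted p = 0.913; 0.684% called). Ache averaged 12.8 ± 3.06 CPM in sections chosen without it and 10.5 ± 4.14 CPM in the others, and was higher in 3 of 4 muscles (edgeR adjusted p = 0.825; 0.137% called). Chrnd and Colq were too sparse to pass the filter on low counts. Kept past it, a setting chosen after seeing the data, Chrnd differed by 1.20 ± 0.43 and was higher in 4 of 4 muscles (0.59% of genes called), and Colq differed by 0.45 ± 0.44 and was higher in 3 of 4 (0.222% called; edgeR adjusted p = 0.304 and 0.913). Of the 4 scoring genes tested, 1 passed.

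**Figure D2:**
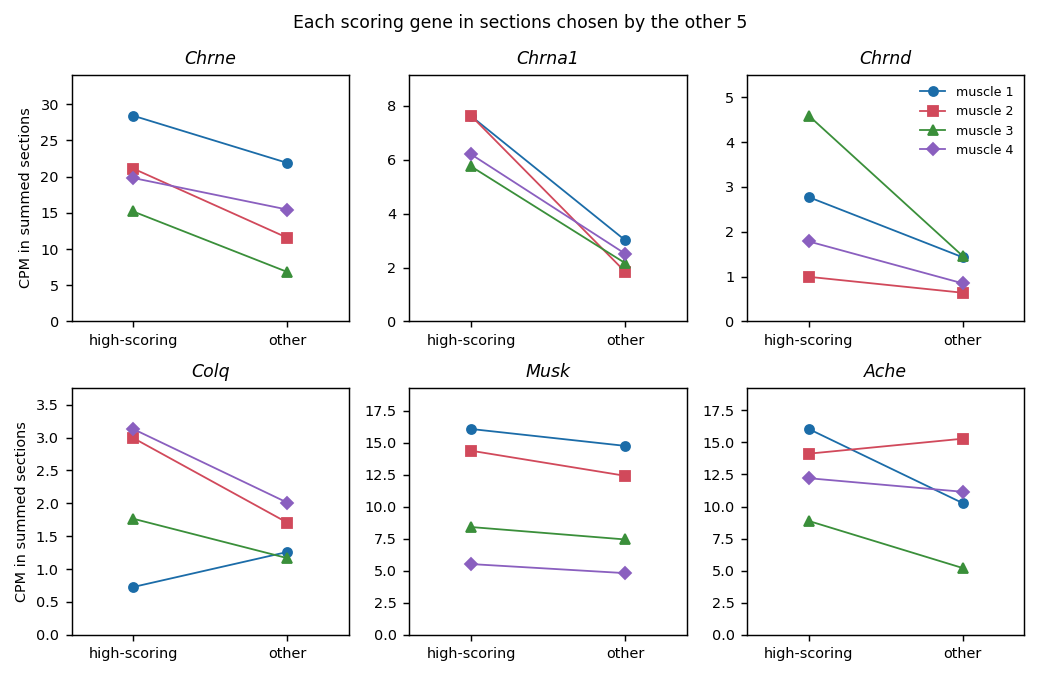
Level of each scoring gene (CPM of summed sections, axes from 0) in the high-scoring sections chosen by the other 5 genes and in the other sections, with 1 line per muscle. Every line of Chrna1, Chrne, Chrnd and Musk falls to the right, and 1 line each of Colq and Ache runs the other way.

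In the comparison of all genes, counts were summed per muscle and side and fitted with muscle as a block. Of 10830 genes tested 62 were called (0.572%), 40 higher (0.369%) and 22 lower (0.203%) in the high-scoring sections, and 50 of them had the same sign in all 4 muscles. With scaling to the library total alone the calls were 93 higher and 11 lower, with limma 72 higher and 8 lower, and with no filter on low counts 15 higher and 46 lower, of which 37 were among the 62. The median log2 difference over all genes was -0.01, and 5198 of the 10830 had a positive difference. An unadjusted p under 0.05 was seen for 875 genes (8.08%). Sums held 1442729 to 2832819 counts in the high-scoring sections and 4683995 to 6859641 in the others. The high-scoring sections held a median of 188836, 164195, 208690 and 151648 counts per section in muscles 1 to 4, against 196135, 115163, 183442 and 173166, with no common direction (exact sign-flip permutation test, two-sided, p = 0.625). The median number of genes detected per section was 10517, 10005, 10695 and 9527 in the high-scoring sections, against 10400, 8923.5, 10261 and 9429.5 in the others, higher in 4 of 4 muscles, at the smallest p that 4 muscles allow in the same test. The part of the number of genes detected in the results was not tested. With sections thinned to 1 depth before scoring 1 gene was called, and with DESeq2 7 were. Since a section pools all its cells, more cells of a type and more RNA per cell cannot be told apart in any difference given here.

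Of the 11 genes listed for the receptor and its clustering, 9 were tested and none was called in edgeR's test, with 1 at an unadjusted p under 0.05 (median log2 difference 0.01). That gene was Chrnb1, the beta subunit of the same receptor, with 33.3, 38.9, 48.8 and 46.4 CPM in the high-scoring sections and 35.3, 42.5, 54.3 and 50.7 CPM in the others. It was lower in 4 of 4 muscles by small amounts (-0.20 ± 0.09, edgeR adjusted p = 0.589). Rapsn, which anchors receptors, differed by -0.03 ± 0.12, Dok7, the activator of Musk, by -0.21 ± 0.20, and Lrp4, the agrin receptor, by 0.16 ± 0.33. Chrng, the fetal subunit, and Agrn did not pass the filter on low counts.

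Of 13 genes listed from nuclei beneath the synapse, 10 were tested and 1 was called higher, against 0.369% of all genes tested. Of these 10 genes 9 had a positive difference (median 0.21), against 5198 of 10830 over all genes. The called gene was Prkar1a, a regulatory subunit of protein kinase A, at 142, 176, 240 and 226 CPM in the high-scoring sections and 135, 139, 186 and 183 CPM in the others (log2 difference 0.23 ± 0.06, higher in 4 of 4 muscles, edgeR adjusted p = 0.0213). It was not called without muscle 2 or without muscle 3. Etv5, an Ets transcription factor of synaptic nuclei, stood at 6.24, 1.49, 13.1 and 5.01 CPM in the high-scoring sections, against 3.66, 3.84, 3.94 and 4.36 CPM in the others. Muscle 3 was far higher and muscle 2 was lower, so the difference of 0.78 ± 0.27 was not called (edgeR adjusted p = 0.258) and was -0.003 without muscle 3. Nes, the intermediate filament nestin, differed by 0.46 ± 0.17 and was higher in 4 of 4 muscles without passing (edgeR adjusted p = 0.340).

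Dusp6, a phosphatase induced by the kinase pathway downstream of neuregulin, was at 2.77, 1.99, 12 and 8.76 CPM in the high-scoring sections and 3.34, 2.35, 4.96 and 3.85 CPM in the others. It was higher in muscles 3 and 4 and lower in muscles 1 and 2 (0.82 ± 0.26, edgeR adjusted p = 0.189). None of 9 tested genes of neuregulin and Ets signalling passed in edgeR (1 at an unadjusted p under 0.05), nor any of 12 of the synaptic basal lamina (0 at that level) or 17 of the junctional folds and dystrophin complex (1 at that level). Among these, Lamb2, the laminin chain concentrated at the synapse, differed by 0.12 ± 0.11. Utrn, the dystrophin relative concentrated at the junction, differed by 0.17 ± 0.09, and Dmd, dystrophin itself, by -0.15 ± 0.05 (edgeR adjusted p = 0.130). Scn4a, the sodium channel of the muscle membrane, differed by -0.23 ± 0.13. None of 8 tested genes of denervated or immature fibres passed in edgeR (2 at an unadjusted p under 0.05), nor any of 3 tested spindle fibre genes (0 at that level).

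Schwann cells ensheath motor axons, and 2 of their genes were called higher in the high-scoring sections. Of 11 genes taken from the Schwann list 6 were tested, and 2 were called higher, against 0.369% of all genes tested. Of these 6 genes 5 had a positive difference, against 5198 of 10830 over all genes. Their median was 0.60, against -0.01 for all genes. Mbp, a protein of the cytoplasmic face of myelin, was at 20.1, 17.9, 12 and 10.6 CPM in the high-scoring sections and 8.91, 5.55, 8.61 and 6.87 CPM in the others (0.91 ± 0.19, edgeR adjusted p = 0.00205). The difference was larger in muscles 1 and 2, at 1.12 and 1.59, than in muscles 3 and 4, at 0.38 and 0.49, and was not called without muscle 2. Sox10, the transcription factor of Schwann cells, differed by 0.67 ± 0.17 (edgeR adjusted p = 0.0382) and was not called without muscle 2 or without muscle 3. Pmp22, another myelin protein, was at 28 ± 3.33 CPM in the high-scoring sections and 21.2 ± 1.89 CPM in the others (SD, n = 4) and did not pass (edgeR adjusted p = 0.251). The summed level of the 11 Schwann genes was 77, 75.7, 79.8 and 68.3 CPM in the high-scoring sections, against 52.3, 42.9, 51.6 and 55 CPM in the others.

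Over the range of the score, Mbp was lowest in every muscle where the score was lowest. With the other sections split by score into 3 groups from low to high, Mbp stood at 2.95, 8.19, 11.7 and, in the high-scoring sections, 20.1 CPM in muscle 1. In muscle 2 it stood at 4.23, 4.699, 6.88 and 17.9 CPM. Muscle 3 did not climb at every step, with 4.43, 5.12, 14.8 and 12 CPM. All the other sections together held 56, 26, 59 and 41 Mbp counts in muscles 1 to 4, so each group rests on few. The groups were not matched for position. Transcripts of axons were sparse. Of 12 axon and motor neuron genes 1 passed the filter, Stmn2, a tubulin-binding protein of neurons, with 9.64 ± 5.04 CPM in the high-scoring sections and 6.79 ± 2.98 CPM in the others (SD, n = 4; edgeR adjusted p = 0.614).

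**Figure D3:**
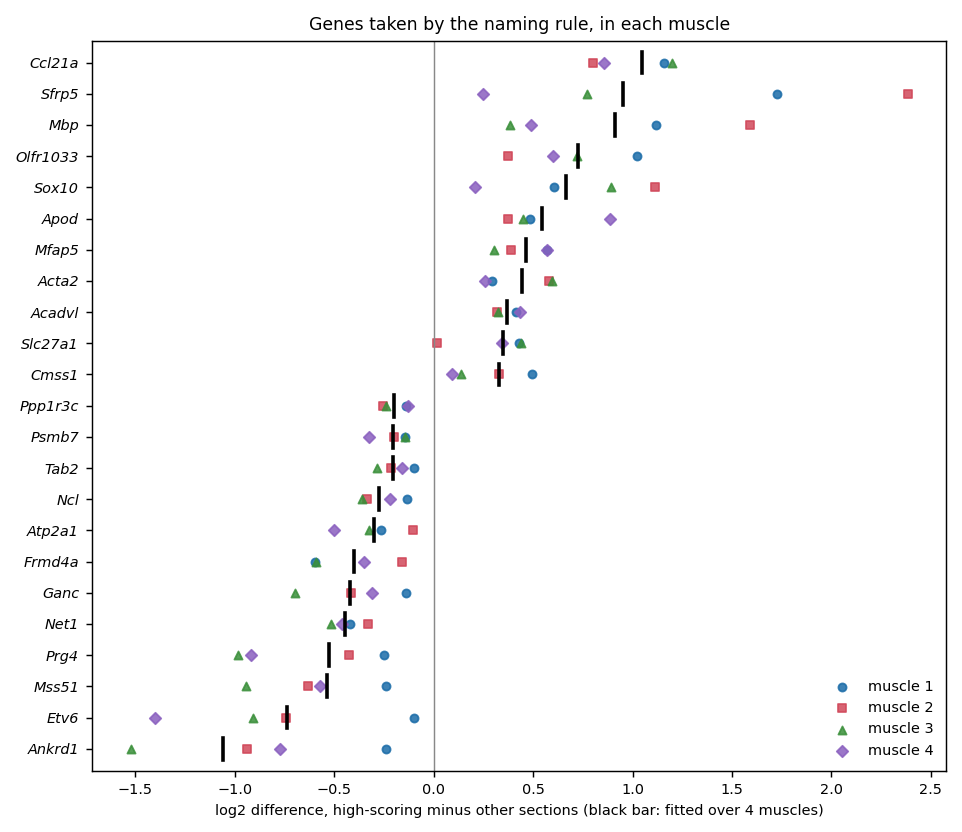
Log2 difference (high-scoring minus other sections) of 23 genes taken by the naming rule, with 1 point per muscle and a black bar at the fitted value. The 4 points of Mbp lie from 0.38 to 1.59, and those of Sfrp5 spread from 0.25 to 2.38.

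Some genes of vessels, blood and connective tissue were also called higher. Of 8 listed smooth muscle and pericyte genes 2 were called higher, against 0.369% of all genes tested. Acta2, smooth muscle actin, stood at 357, 360, 256 and 229 CPM in the high-scoring sections and 289, 238, 161 and 176 CPM in the others (0.44 ± 0.05, edgeR adjusted p = 4.21e-10). Myh11, smooth muscle myosin, differed by 0.37 ± 0.07 (edgeR adjusted p = 0.00174) but was lower in muscle 4, at -0.14, and not called without muscle 3. Rgs5, a pericyte gene, differed by 0.01 ± 0.06. None of 10 endothelial genes passed in edgeR, with 0 at an unadjusted p under 0.05 and a median of 0.10.

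Ccl21a, a chemokine of lymphatic vessels, was at 25, 27.9, 25.4 and 17.5 CPM in the high-scoring sections and 10.8, 15.6, 10.2 and 8.72 CPM in the others. The 2 sides do not overlap, and the log2 difference was 1.05 ± 0.15 (edgeR adjusted p = 1.86e-07). Mouse has close copies of this gene, so its counts are uncertain. Of 5 red cell genes the 4 globins were called higher, against 0.369% of all genes tested. Hba-a1, an alpha globin, stood at 3893, 3831, 2739 and 4392 CPM in the high-scoring sections and 2863, 2900, 1954 and 3853 CPM in the others (0.32 ± 0.04, edgeR adjusted p = 2.02e-09), while Hba-a2, a near-identical copy, was lower in muscle 4. Reads can be split between such copies.

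Of 9 genes of fibro-adipogenic progenitors, which make the matrix between fibres, 2 were called higher, against 0.369% of all genes tested. Of these 9 genes 8 had a positive difference (median 0.20), against 5198 of 10830 over all genes. Mfap5, a microfibril protein, stood at 61.1, 34.9, 35.7 and 55.8 CPM in the high-scoring sections and 40.6, 26.3, 27.3 and 34.6 CPM in the others (0.47 ± 0.10, edgeR adjusted p = 0.00323). Dcn, the proteoglycan decorin, differed by 0.21 ± 0.05. Apod, a lipid carrier, stood at 36.1, 28.4, 29 and 35.1 CPM in the high-scoring sections and 25.5, 21.6, 19.99 and 17.3 CPM in the others (0.55 ± 0.12, edgeR adjusted p = 0.00526). Sfrp5, a secreted Wnt inhibitor, differed by 0.95 ± 0.19 in the fit but by 1.73, 2.38, 0.77 and 0.25 in muscles 1 to 4, and was not called without muscle 2. The calls ended without muscle 1 for Mfap5, without muscle 4 for Apod, and without muscle 2 or muscle 4 for Dcn. Pdgfra, the receptor that marks these progenitors, was not called (0.24 ± 0.15).

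The remaining genes taken by the naming rule on the higher side were Acadvl, an enzyme of mitochondrial fatty acid oxidation (0.37), the fatty acid transporter Slc27a1 (0.35), Cmss1 (0.33) and Olfr1033, annotated as an olfactory receptor (0.72). Acadvl stood at 84, 76.3, 71.2 and 69 CPM in the high-scoring sections and 62.2, 60.5, 53.9 and 47 CPM in the others, apart in all 4 muscles. Slc27a1 differed by 0.02 in muscle 2, and was not called without muscle 1, muscle 3 or muscle 4. Olfr1033 was not called without muscle 1, nor Cmss1 without muscle 1 or muscle 2. Gm15564, a clone name that the rule passes over and that was picked out after its values were seen, had the smallest p of all genes. It stood at 209, 157, 70.1 and 152 CPM in the high-scoring sections and 90.2, 118, 60.1 and 52.5 CPM in the others (0.78 ± 0.08, edgeR adjusted p = 1.65e-11). Chrne, Mbp, Ccl21a, Acadvl, Cmss1, Gm15564, Prg4, Ganc, Frmd4a, Etv6, Psmb7, Atp2a1, Casq1, Dmd, Myh2, Col22a1, Chad, Rapsn, Utrn, Pdgfra and Ache overlap a gene on the opposite strand. Whether counting used strand is not given in the sources used here, so their counts can include its transcripts.

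**Figure D4:**
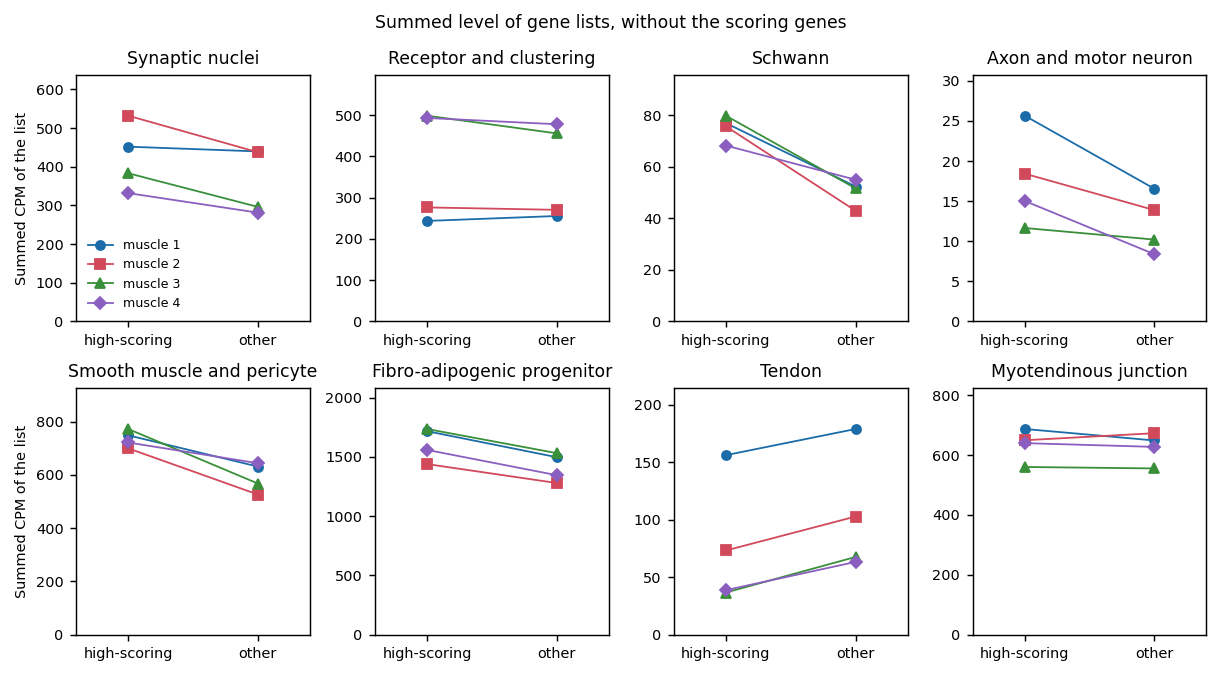
Summed level of 8 gene lists (CPM, axes from 0) in the high-scoring and other sections of each muscle, with the scoring genes left out. The Schwann sum lies between 68.3 and 79.8 CPM in the high-scoring sections and between 42.9 and 55 CPM in the others. The tendon sum is lower in the high-scoring sections of all 4 muscles, and the myotendinous junction sum is higher in 3 of 4.

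Ankrd1, a stretch-induced partner of titin listed with the myotendinous junction, had the largest fall among genes taken by the rule. It stood at 10.4, 12.9, 10.2 and 10.02 CPM in the high-scoring sections and 12.2, 25, 28.9 and 16.1 CPM in the others. Muscle 1 showed little of the difference, which was -1.06 ± 0.16 in the fit (edgeR adjusted p = 3.78e-06) and lost its call without muscle 3. Mss51, a mitochondrial protein enriched in muscle, stood at 391, 285, 51.7 and 89.7 CPM in the high-scoring sections and 457, 438, 94.5 and 123 CPM in the others (-0.54 ± 0.06, edgeR adjusted p = 8.46e-11). It was lower in 4 of 4 muscles. Over sections ordered by score from low to high it was 154, 99.0, 58.1 and 51.7 CPM in muscle 3. From the lowest to the highest group it went from 550 to 391 CPM in muscle 1. In muscle 2 it went from 500 to 285 CPM, and in muscle 4 from 162 to 89.75 CPM. These groups were not matched for position. Prg4, the joint lubricant lubricin, differed by -0.52 ± 0.10 in the fit. It stood at 92.4, 56.4, 18 and 16.9 CPM in the high-scoring sections and 109, 74.9, 34.3 and 29.8 CPM in the others. By muscle the log2 difference was -0.25, -0.43, -0.98 and -0.92.

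All 5 tendon genes tested had a negative difference, with a median of -0.52, and 1, Prg4, was called lower (0.203% of all genes tested). Chad, a cartilage and tendon matrix protein, differed by -0.63 ± 0.18 (edgeR adjusted p = 0.0832), Fmod, fibromodulin, by -0.50 ± 0.20, and Tnmd, tenomodulin, by -0.92 ± 0.35. Of 10 myotendinous junction genes Ankrd1 alone was called, and 3 had a positive difference. Their summed level was 687, 649, 560 and 640 CPM in the high-scoring sections and 649, 673, 555 and 627 CPM in the others. That sum was higher in the high-scoring sections of 3 of 4 muscles. Col22a1, the collagen of that junction, differed by -0.79 ± 0.26 (edgeR adjusted p = 0.232). Net1, an activator of the GTPase RhoA, differed by -0.44 ± 0.10, and Etv6, an Ets family repressor, by -0.74 ± 0.18 in the fit but by -0.10 in muscle 1. The other genes taken by the rule on the lower side were the glucosidase Ganc (-0.42), Frmd4a (-0.40), nucleolin, Ncl (-0.27), the kinase adaptor Tab2 (-0.20), the proteasome subunit Psmb7 (-0.20) and Ppp1r3c, a targeting subunit for glycogen synthesis (-0.20). The call ended without muscle 3 for Net1, without muscle 1 for Frmd4a and without muscle 4 for Psmb7. It ended without muscle 2 or muscle 3 for Ganc, Ncl and Ppp1r3c, and without any 1 of muscles 2, 3 and 4 for Etv6 and Tab2. Ganc shares its strand and position in part with Capn3, so its counts may include transcripts of that gene.

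The 13 fast fibre genes together made up 228701 to 254458 CPM in the high-scoring sections and 243332 to 295095 CPM in the others, so both sides carry the labelled tissue. Of these 13 genes, all tested, 2 were called lower (0.203% of all genes tested) and 9 had an unadjusted p under 0.05 (8.08%). A negative difference was seen for 11 of the 13, with a median of -0.08. Over all genes 5198 of 10830 had a positive difference. Atp2a1, the calcium pump of fast fibres, stood at 90334, 113347, 112175 and 137951 CPM in the high-scoring sections and 107391, 120553, 132972 and 179862 CPM in the others (-0.30 ± 0.04, edgeR adjusted p = 1.72e-08). In at least 1 section 90% or more of the possible UMIs (molecular identifiers) of Atp2a1 were used. The same held for Myh4, Myl1, Pvalb, Tnnt3 and Tnnc2, so the counts given for the list rest in part on saturated genes. The counts of Atp2a1 came to 896166 in the 43 high-scoring sections and 3225780 in the other 128, so its saturation was not limited to 1 section. Its difference and its call are therefore uncertain. The total over which the score was taken includes Atp2a1 and the other fast fibre genes. A section low in them thus scores higher by construction, and their falls are in part drawn from values that chose the sections. Casq1, which stores calcium, differed by -0.17 ± 0.04, was higher in muscle 1 and was not called without muscle 2 or muscle 4. Myh4, the fast myosin of type 2B fibres and also close to saturation, differed by -0.13 ± 0.04 (edgeR adjusted p = 0.0780), and Myh2, the myosin of type 2A fibres, by 0.14 ± 0.04 (edgeR adjusted p = 0.191).

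None of 12 glycolysis genes passed in edgeR, with 5 at an unadjusted p under 0.05 (8.08% of all genes tested) and a median of -0.06. Of 17 nuclear genes of oxidative phosphorylation 2 were called higher, against 0.369% of all genes tested. Of these 17 genes 14 had a positive difference (median 0.06), against 5198 of 10830 over all genes. Ndufa4 stood at 917, 935, 1607 and 1405 CPM in the high-scoring sections and 782, 870, 1366 and 1106 CPM in the others (0.17 ± 0.04), and Cox8b, a subunit of cytochrome oxidase, differed by 0.20 ± 0.04. Ndufa4 was not called without muscle 1, muscle 3 or muscle 4, nor Cox8b without muscle 1. None of 8 slow fibre genes passed in edgeR (2 at an unadjusted p under 0.05). Of the other lists of cells and states, none of the tested genes passed in edgeR, out of 3 perineurial genes (1 at an unadjusted p under 0.05), 5 macrophage genes (0 at that level), 2 satellite cell genes (0), 2 adipocyte genes (0) and 4 immediate early genes (1). The share of mitochondrially encoded counts was 61.9%, 62.5%, 64.1% and 68.7% in the median high-scoring section and 60.7%, 61.04%, 64.4% and 66.9% in the median other section (exact sign-flip permutation test, two-sided, p = 0.25).

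The top 25% was then taken within each of the 5 zones, so that both sides drew on each zone in about the same proportion. Positions inside a zone were not matched. With this choice 4 of 11014 genes were called (0.0363%) and all 4 were among the 62. Among them Gm15564 was higher by 0.53 (edgeR adjusted p = 1.34e-07), while Atp2a1 was lower by 0.24 on the log2 scale. Atp2a1 is saturated in more than 1 section and is part of the score's total, so its call is uncertain here too. Gm48099, another clone name, was also called higher. Ankrd1 differed by -0.29, Mss51 by -0.19 and Prg4 by -0.09 in that comparison, and Acta2 by 0.20, Mbp by 0.48 and Ccl21a by 0.57, none of which was called. Of the 43 high-scoring sections 29 were kept by the position-matched choice. With the original 43 sections and the zone as a further block, 3 genes were called (Acta2 and Gm15564 higher, Frmd4a lower) of 5943 tested. That fit was chosen after seeing the data.

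**Figure D5:**
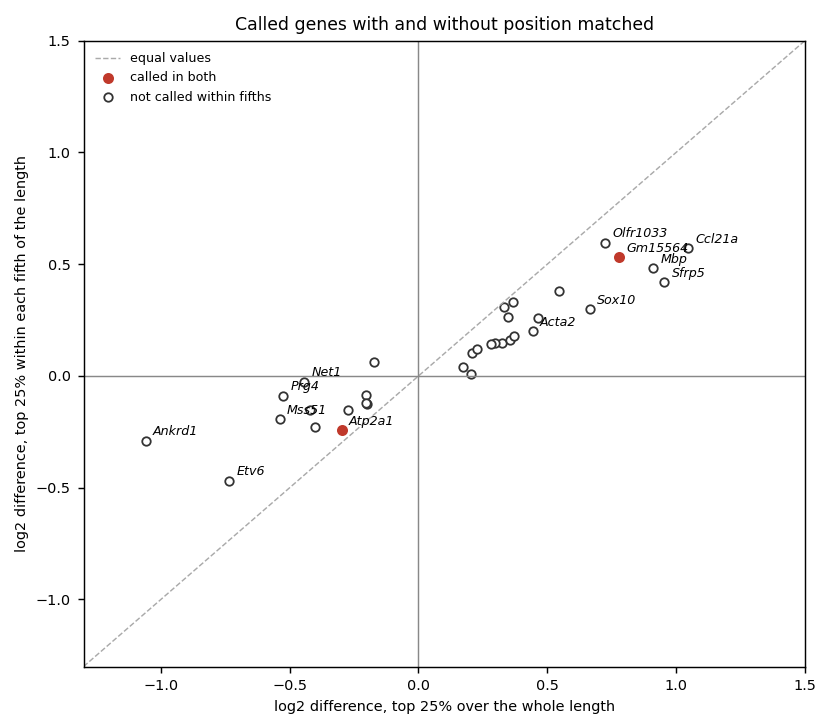
Log2 difference of 34 called and named genes with sections chosen over the whole length (horizontal) and within each of 5 zones (vertical). Most points lie nearer 0 on the vertical axis than on the horizontal, Ankrd1 at -1.06 and -0.29, and Mbp at 0.91 and 0.48.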

How the data were processed

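Single cryosections of 4 muscles were profiled by CEL-Seq2, which counts transcript 3' ends, with UMIs of 6 bases and section barcodes of 8 bases, per the labels' protocols. The submitters' processing notes name STAR 2.7.7a and the build GRCm38. The counting program, its strand setting and the annotation were not given in the sources used here. Each deposited table holds an estimated count per gene and barcode, corrected for UMIs drawn more than once out of 4096. A second deposited table per muscle holds a normalized signal, from which only the sections kept by the authors were taken. Kept sections held 28380 to 575524 non-mitochondrial counts. Entries naming several genes (0.58% to 0.93% of counts), mitochondrially encoded genes and the scoring genes were left out of the tests.

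Counts were summed per muscle and side, rounded, and passed to edgeR 4.0.16 (R 4.3.3). Genes passed filterByExpr, scaling was by TMM, and the quasi-likelihood F-test had muscle as block because both sides come from 1 muscle, with Benjamini-Hochberg adjustment at 0.05. Printed CPM are per library total, so their ratio within a muscle can depart from the log2 difference, which is TMM-scaled. The biological coefficient of variation was 3.72%. Standard errors come from the F statistic and pool information between genes, so the spread over muscles can be wider. On simulated data with 10560 genes, 83 of 95 changes of 1 log2 unit, 38 of 99 of 0.5 and 4 of 10366 unchanged genes were called in this comparison. The simulation gave all genes the same coefficient of variation, with no trend along the muscle and no choice of sections by score. It therefore cannot show how many calls in the real data depend on position or on that choice. Each scoring gene was also tested with sections chosen by the other 5. Named genes are the called ones with 1 sign in all 4 muscles and at least 5 CPM, up to 12 in each direction by size of difference, clone names and pseudogenes passed over, besides members of 24 lists (13 of muscle genes, 11 of other cells). The sections, lists and rule were chosen with earlier results of these data known. One gene is not reported here and was left out of its list, the named genes and the figures. Coordinates are from GENCODE M21 (28895 of 28989 identifiers matched). Alternatives used DESeq2 1.42.0 and limma 3.58.1 among 22 settings.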

Additional observations from a re-analysis of the deposited data

Results flagged for a closer look

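Among 76 results examined over the 4 muscles, the per-muscle log2 differences of 2 genes had 1 muscle far from the other 3, and chance alone gives such a gap in about 1 of 20. Hba-a1, an alpha globin, differed by 0.072 in muscle 4, against 0.39 to 0.43 in muscles 1 to 3. Hba-a2, its near-identical copy, differed by -0.12 in muscle 4, against 0.37 to 0.43 in the other 3 muscles. In muscles 3 and 4 Hba-a2 held 53.1 and 54.5 CPM in the high-scoring sections and 38.7 and 54.6 CPM in the others. In muscles 1 and 2 it held 2688 and 2626 CPM, against 1978 and 2013 CPM. The low level is thus not particular to muscle 4. The cause was not tested.

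The 6 scoring genes also held 37 counts in 213 barcodes that the authors did not keep, which no comparison here uses. There they made up 36.7 to 50.6 CPM of the non-mitochondrial counts in the 4 muscles.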

How the results depend on the processing

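The number of genes called, 62 as reported, depended strongly on how sections were chosen and tested. It was 4 with the top 25% taken within each of 5 zones, 1 with sections thinned to 1 depth before scoring (Mss51, lower), 32 with the score relative to all genes, 38 with the scoring genes weighted equally, 97 with the highest-scoring 33% of sections, 14 with 12.5%, 39 without the outermost 10% at each end, and 3 with muscle and zone together as a block, which was chosen after seeing the data. By test or scaling it was 7 with DESeq2 and 104 with the library total, whose median log2 difference over all genes was 0.05. It was 29 in muscles 1 and 2 and 24 in muscles 3 and 4, which used different barcode sets. Without 1 muscle it ranged from 37, without muscle 3, to 61. Both sides come from the same muscle, and with no replicate block it was 0 in edgeR. The total moved by under 1.5 times, but not with the same genes, with limma (80, of which 72 higher and 42 shared with the 62), no filter on low counts (61, of which 15 higher and 37 shared; the median of the 10830 genes was then -0.09), RLE scaling (62, 59 shared), mitochondrial genes kept (65, 59 shared) and 50% of sections (58, 29 shared).

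Of 34 called genes named, 23 lost their call with some 1 muscle left out. With position matched, 31 were no longer called and Casq1 changed sign (0.063). With the zone as a block Casq1 (0.0197) and Net1 (0.012) changed sign, and Frmd4a did so with the score relative to all genes (0.15), thinned (0.094), or with 33% (0.031) or 50% of sections (0.017). Among genes not called, thinning changed the sign of Actc1 (-0.038), Tnnc1 (-0.011), Stmn2 (-0.072) and Tagln (-0.057). Position matching did so for Pkm (0.033), Jun (-0.011), Tagln (-0.063), Cxcl14 (-0.0197), Fmod (0.056) and Chad (0.0499), the zone block for Myh2 (-0.0101), Pvalb (0.012), Pkm (0.019) and Cxcl14 (-0.028), and 50% of sections for Actc1 (-0.0035). In muscles 1 and 2 alone Etv5 (-0.058), Myh2 (-0.013) and Pvalb (0.0033) changed sign. Without 1 muscle Etv5 ranged from -0.0034, without muscle 3, to 1.06, without muscle 2.

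Chrna1, chosen for by the other 5 genes, kept its direction but not its call with position matched (0.63), thinned (1.05) or with no replicate block (1.43), and ranged from 1.29 to 1.51 without 1 muscle. Chrne ranged from 0.47 to 0.73 without 1 muscle. The difference in median counts per section ranged from -1189.8, without muscle 2, to 22327, without 1 muscle each, around 11366. The causes were not tested. The few scoring counts per section limit how well sections are told apart.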
